A study of Mus musculus with 3 samples.

Results

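The elastic fibre genes followed here are 10 genes of the mouse, chosen by symbol: *Eln*, *Fbn1*, *Fbn2*, *Fbln1*, *Fbln2*, *Fbln5*, *Efemp2*, *Mfap4*, *Mfap5*, and *Emilin1*. Each has 1 row among the 15554 rows of the deposited table. They were put together with their values in these libraries already known, so their changes are given as a description, without a test. The cells were NIH3T3, a fibroblast line established from mouse embryos. All cells were moved to serum-free medium, and were then either left without stimulation (CTRL) or stimulated for 24 h with GDF15 protein at 100 ng/mL or with TGF-β protein at 4 ng/mL. GDF15 is a distant member of the TGF-β superfamily, and the comparison asks whether it acts on fibroblasts as TGF-β does. RNA samples of each treatment were pooled into 1 sequenced library, so the culture-to-culture error is not known for any value below.

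Elastic fibres give tissues such as artery, lung, and skin their recoil. Their core is cross-linked elastin, the product of *Eln*, and it is laid down on a scaffold of microfibrils built from fibrillins, here *Fbn1* and *Fbn2*. Fibulins and related glycoproteins bring tropoelastin, the fibrillins, and the lysyl oxidases that cross-link tropoelastin together, and TGF-β is a known inducer of elastin in mesenchymal cells. The microfibrils also hold latent TGF-β through its binding proteins.

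Expression is given as FPKM, in which fragments are scaled to transcript length and to the mapped total, a value per length that allows levels of different genes to be set side by side. Changes are differences of log2(FPKM + 1) between 2 libraries, and a gene was counted as changed when the difference exceeded 1 in size, which corresponds to the 2-fold criterion of the study. From the steps of low FPKM values, depths of 18.4, 21.7, and 17.6 (in units of 1e6 fragments) were estimated for CTRL, GDF15, and TGF-β. The numbers of fragments and the 95% intervals of the FPKM ratios follow from these estimates and cover counting error only. All 10 listed fibroblast markers were at an FPKM of at least 1 in each library, whereas the 5 listed endothelial and the 5 listed epithelial markers were all below 1. Outside these lists, the keratin genes *Krt14* and *Krt16* were above 1 in each library. Of 4 chondrocyte markers, *Sox9* alone was above 1 (68 without stimulation, 59.4 after GDF15, and 60.7 after TGF-β). Of the 4 macrophage markers in the table, *Lyz2* (5.29, 6.2, and 4.13) and *Cd68* (1.66, 1.14, and 1.67) were above 1, and *Ptprc* and *Csf1r* were below it. The 6 smooth muscle markers summed to 71.7 without stimulation, 132 after GDF15, and 156 after TGF-β, of which *Acta2* made up 20.4, 73.6, and 96.1. Of the other 5, *Tagln* was at 2.2, 8.27, and 13.8 and *Smtn* at 48.4, 49.1, and 45.3, and *Myh11*, *Cnn1*, and *Des* were below 1 in every library. The part of these markers in the results was not tested. As in any bulk sample, fewer expressing cells and less RNA per cell cannot be told apart.

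Promoter windows of 6 of the 10 genes were found in the RefSeq table for GRCm38.p6, each from 250 bases before to 50 bases after a transcription start. No window was available here for *Eln*, *Fbn2*, *Mfap4*, and *Mfap5*. Where a gene had several windows, the one nearest to the 5′ end of the annotated gene was taken. The windows of 3 genes that were higher in both stimulated libraries (*Fbln5*, *Fbln2*, and *Fbn1*) are shown with that of *Efemp2*, a gene that was not. Letters run 5′ to 3′ on the strand of the gene. Capitals mark CAGAC, the half-site that Smad proteins can bind, and GGGCGG, the GC box, on either strand. In these 4 windows no marked letters overlap.

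Fbln5 promoter, chr12:101819070-101819369, minus strand: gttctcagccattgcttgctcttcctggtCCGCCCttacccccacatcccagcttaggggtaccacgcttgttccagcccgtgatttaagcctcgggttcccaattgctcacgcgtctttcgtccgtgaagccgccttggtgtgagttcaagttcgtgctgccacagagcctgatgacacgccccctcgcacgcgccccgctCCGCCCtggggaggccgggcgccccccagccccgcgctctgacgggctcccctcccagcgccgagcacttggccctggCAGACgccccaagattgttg

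Fbln2 promoter, chr6:91212514-91212813, plus strand: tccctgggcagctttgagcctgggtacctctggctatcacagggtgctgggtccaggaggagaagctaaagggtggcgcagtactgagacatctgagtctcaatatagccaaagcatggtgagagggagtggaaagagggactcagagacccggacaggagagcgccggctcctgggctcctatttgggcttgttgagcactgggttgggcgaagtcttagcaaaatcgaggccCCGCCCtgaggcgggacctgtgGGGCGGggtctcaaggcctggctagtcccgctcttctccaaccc

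Fbn1 promoter, chr2:125506389-125506688, minus strand: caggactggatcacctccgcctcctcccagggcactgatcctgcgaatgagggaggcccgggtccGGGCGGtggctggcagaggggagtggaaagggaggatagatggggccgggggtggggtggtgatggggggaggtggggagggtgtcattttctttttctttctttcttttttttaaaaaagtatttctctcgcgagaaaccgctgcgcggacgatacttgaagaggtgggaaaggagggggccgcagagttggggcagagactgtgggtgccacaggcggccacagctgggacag

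Efemp2 promoter, chr19:5473696-5473995, plus strand: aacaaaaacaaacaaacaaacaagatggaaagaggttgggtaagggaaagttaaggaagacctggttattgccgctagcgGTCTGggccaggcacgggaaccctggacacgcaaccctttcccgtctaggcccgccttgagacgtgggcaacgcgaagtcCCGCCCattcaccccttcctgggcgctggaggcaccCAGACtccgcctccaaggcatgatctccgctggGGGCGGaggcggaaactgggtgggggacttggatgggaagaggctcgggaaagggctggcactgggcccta

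The half-site CAGAC was present in 1 copy in the window of *Fbln5*, beginning at position 31 after the start, and in 2 copies in that of *Efemp2*, beginning at -170 and -54. It was not present in the windows of *Fbln2* and *Fbn1*. Of all 32851 windows of this length, 49.6% held it and 35.7% held GGGCGG, which had 2 copies each in *Fbln5*, *Fbln2*, and *Efemp2* and 1 copy in *Fbn1*. TATAAA (13.6% of windows) and TGANTCA, the AP-1 site (7.8%), were found in 0 of the 6 windows. *Fbln1* and *Emilin1*, whose windows are not shown, had 2 copies of CAGAC each and 0 of GGGCGG. These matches are letters in a window and were not tested as binding sites.

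*Eln* encodes tropoelastin and lies on the minus strand of chromosome 5 (134702593 to 134747323, GRCm38, here and below by GENCODE M21). Its FPKM was 1.79 without stimulation, 4.53 after GDF15, and 15.8 after TGF-β, corresponding to an estimated 120, 359, and 1014 fragments. All 3 libraries were separated by more than counting error, with TGF-β the highest. The FPKM ratio to CTRL was 2.53 (95% counting interval 2.06 to 3.15) for GDF15 and 8.83 (7.33 to 10.8) for TGF-β. On the log2(FPKM + 1) scale the changes were 0.99 and 2.59. The change by GDF15 therefore lay just under the 2-fold criterion, at rank 34 of the rises over all 15554 genes. It passed the criterion under 6 of the 7 processing alternatives that can change it, with 1.14 at a pseudocount of 0.5 and 1.34 without one. The change by TGF-β was at rank 6. In the direct comparison, which does not use CTRL, TGF-β was 3.49-fold above GDF15 (3.09 to 3.95), a log2 difference of 1.60 and the rise at rank 2 of all genes.

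**Figure D1:**
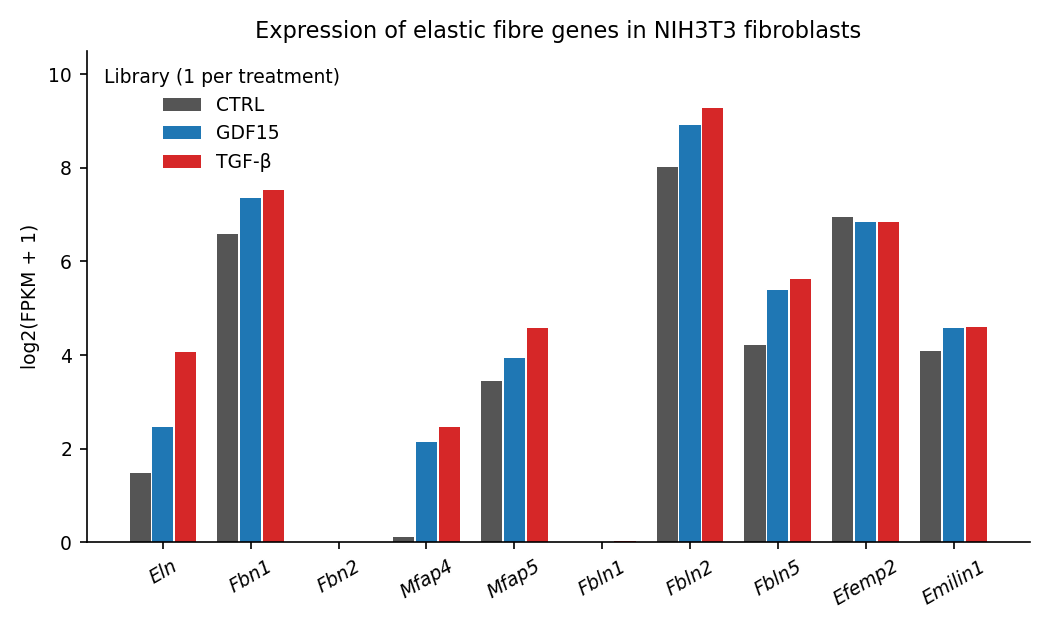
Expression of the 10 elastic fibre genes, with log2(FPKM + 1) on the vertical axis and 1 bar for each of the 3 libraries (grey CTRL, blue GDF15, red TGF-β, 1 pooled library each, no error bars). *Eln* steps up from CTRL (FPKM 1.79) to GDF15 (4.53) and TGF-β (15.8), *Efemp2* stays level, and *Fbn2* and *Fbln1* have no visible bar.

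The 2 fibrillin genes were far apart. *Fbn1* (chromosome 2, 125300594 to 125507993), which encodes the main microfibril protein, had an FPKM of 95.7 without stimulation, 163 after GDF15, and 184 after TGF-β. Both stimulated libraries were above CTRL, and TGF-β was the higher of them. The ratio to CTRL was 1.7 (1.67 to 1.73) for GDF15 and 1.92 (1.89 to 1.95) for TGF-β, with log2 changes of 0.76 and 0.93, neither past the criterion. The exons of *Fbn1* share 2442 bases with those of *Gm9913*, annotated as coding on the opposite strand and not a row of the table. Reads of both cannot be told apart unless counting used the strand. *Fbn2*, the fibrillin known from embryonic tissue, was listed at 0 in all 3 libraries.

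The microfibril-associated genes differed in their starting level. *Mfap4*, whose protein binds tropoelastin and fibrillin, lies on chromosome 11 (61485431 to 61488900) and had an FPKM of 0.0816 without stimulation, 3.43 after GDF15, and 4.53 after TGF-β. It was almost not detected without stimulation, at an estimated 2.28 fragments, against 113 and 121 with GDF15 and TGF-β. The ratio was 42 (13 to 400) for GDF15 and 55.6 (17.2 to 530) for TGF-β, so its size is poorly determined while its direction is beyond counting error. The log2 changes, damped by the pseudocount, were 2.03 and 2.35, at ranks 3 and 12 of the rises. The last exon of *Mfap4* shares 89 bases with *Mapk7* on the other strand. *Mapk7* was lower in both stimulated libraries (27.8 without stimulation, 22.5 after GDF15, and 21.5 after TGF-β). Reads of the shared bases cannot be told apart unless counting used the strand, and their part in the values of *Mfap4* was not tested. *Mfap5* (chromosome 6, 122505845 to 122529290) encodes a small glycoprotein of fibrillin microfibrils. Its FPKM was 9.91 without stimulation, 14.3 after GDF15, and 22.9 after TGF-β. Its log2 changes were 0.49 (GDF15) and 1.13 (TGF-β), past the criterion for TGF-β alone, and TGF-β was 1.6-fold above GDF15 (1.4 to 1.82). After *Eln*, this was the second-largest direct difference among the 10 genes. *Mfap2*, which encodes the other small glycoprotein of the same family, was at an FPKM of at most 0.0658.

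Among the fibulins, *Fbln2* was the most abundant of the 10 genes in every library. Fibulin 2 binds both fibrillin and tropoelastin. *Fbln2* (chromosome 6, 91212455 to 91272540) had an FPKM of 257 without stimulation, 480 after GDF15, and 622 after TGF-β. Each library was separated from the next, with ratios of 1.87 (1.84 to 1.9) by GDF15 and 2.42 (2.38 to 2.46) by TGF-β and log2 changes of 0.90 and 1.27. *Fbln5* (chromosome 12, 101746565 to 101819055) encodes fibulin 5, which tethers tropoelastin to microfibrils and cells. Its FPKM was 17.6, 41.1, and 48.5 in the same order. It was, with *Mfap4*, past the criterion for both stimuli, at log2 changes of 1.18 and 1.41, and the direct ratio between them was 1.18 (1.13 to 1.23).

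*Efemp2* encodes fibulin 4, which is needed for lysyl oxidase to reach tropoelastin. Located on chromosome 19 (5473954 to 5482517), it had an FPKM of 122 without stimulation, 114 after GDF15, and 114 after TGF-β. It was the single gene of the 8 that was lower in both stimulated libraries, by a log2 change of -0.10 each, and its ratio between TGF-β and GDF15 was 1 (0.965 to 1.04). These changes were -0.04 and -0.03 with upper-quartile scaling, and -0.01 and 0.01 with the length and GC trend removed. The sign of each change turned under 1 of the 7 processing alternatives that can change it. *Fbln1* was listed at 0 in CTRL and GDF15 and at 0.0177 in TGF-β, about 1.08 fragments by the depth estimate, too few for a fold against the floor of 3.

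*Emilin1*, on chromosome 5 (30913402 to 30921277), encodes a glycoprotein found between the elastin core and the microfibrils. Its FPKM was 15.9 without stimulation, 22.7 after GDF15, and 23.1 after TGF-β. Both stimulated libraries lay above CTRL, with ratios of 1.43 (1.33 to 1.55) and 1.46 (1.35 to 1.58), and log2 changes of 0.49 and 0.52. The ratio between the stimuli was 1.02 (0.951 to 1.09), an interval that includes equality.

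**Figure D2:**
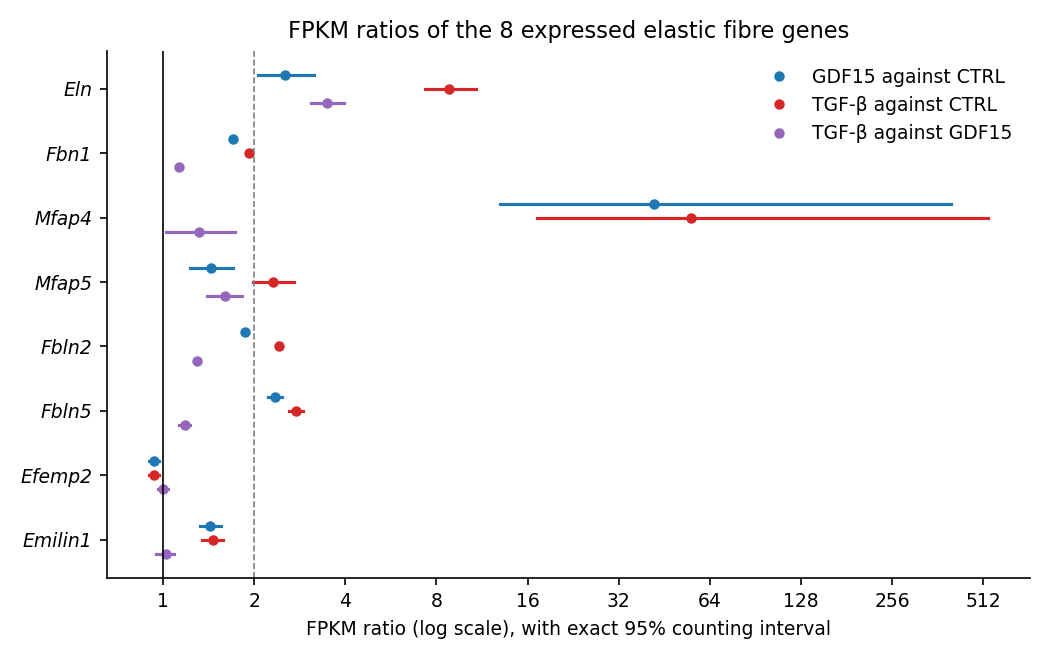
FPKM ratios of the 8 elastic fibre genes above the floor of 3 fragments in at least the stimulated libraries, on a log axis; points are ratios, lines are exact 95% counting intervals, the solid line marks a ratio of 1 and the dashed line a ratio of 2. *Mfap4* has the widest interval (13 to 400 for GDF15), and the direct ratio of TGF-β to GDF15 lies above 2 only for *Eln* (3.49).

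In all, 2 of the 10 genes were more than 2-fold higher in GDF15 than in CTRL (*Mfap4* and *Fbln5*), where 0.212% of all genes were. The count of 2 became 3 under 5 processing alternatives and 4 with a running median by expression removed. Over all genes, 45 were over 2-fold in either direction by GDF15 as reported. At pseudocounts of 0.5, 0.1, and none, these were 71, 315, and 589. They were 47 with upper-quartile scaling, 43 with the length and GC trend removed, and 49 with the running median removed. For TGF-β there were 5 (*Eln*, *Mfap4*, *Fbln5*, *Fbln2*, and *Mfap5*), where 0.579% of all genes were higher by this criterion. Upper-quartile scaling and removal of the running median each gave 6. Over all genes, 141 and 139 were then over 2-fold in either direction, against 142 as reported. In the direct comparison, 1 gene, *Eln*, was higher in TGF-β by more than 2-fold, against 0.0836% of all genes. None of the 10 genes was lower by more than 2-fold in any of the 3 comparisons, where the shares of all genes were 0.0772%, 0.334%, and 0.0193%. The genes were picked with these values known, so the counts describe the picked set. The median change over the 8 genes whose mean FPKM was at least 1 was 0.83 by GDF15 and 1.20 by TGF-β, while over the 9226 genes of the table at that level it was -0.03 and -0.07. *Mfap4* reached this mean only through the stimulated libraries. Over all 10 genes, with the 2 at or near 0 included, the medians were 0.62 and 1.03. In the direct comparison, the counting interval of the ratio lay above 1 for 6 of these 8 genes and included 1 for *Emilin1* and *Efemp2*. By value alone, 8 of these 8 genes were higher in TGF-β than in GDF15 (*Efemp2* by 0.00), as were 3659 of the 9226 genes at that level. The comparisons with CTRL share that library, so an error of that library would enter both.

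**Figure D3:**
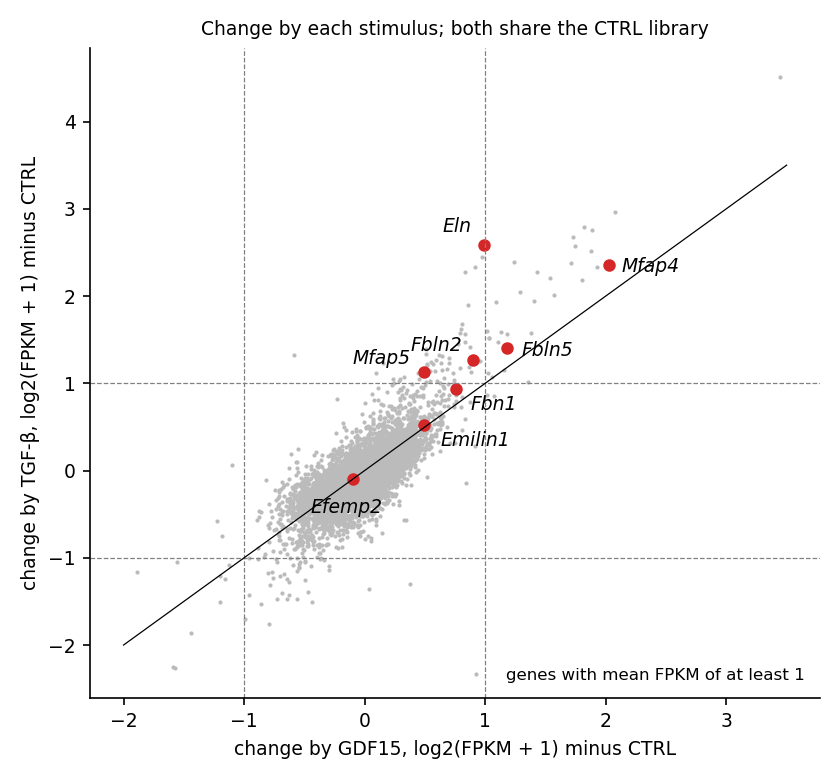
Change by GDF15 (horizontal) and by TGF-β (vertical) against CTRL, both as differences of log2(FPKM + 1); grey points are the 9226 genes whose mean FPKM was at least 1, red points 8 elastic fibre genes, dashed lines the 2-fold criterion, and the diagonal equal change. *Eln* (0.99 and 2.59) lies far above the diagonal, *Emilin1* (0.49 and 0.52) on it.

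The order of the levels shifted with stimulation. In CTRL, it ran from *Fbln2* (257) through *Efemp2* (122), *Fbn1* (95.7), *Fbln5* (17.6), *Emilin1* (15.9), and *Mfap5* (9.91) to *Eln* (1.79) and *Mfap4* (0.0816). In both stimulated libraries *Fbn1* stood above *Efemp2*, and the rest of the order of these 8 genes was kept. *Fbln5* and *Emilin1* were neighbours in CTRL at 17.6 and 15.9, and moved apart to 41.1 and 22.7 in GDF15 and 48.5 and 23.1 in TGF-β. *Emilin1* and *Mfap5* came to lie side by side in TGF-β, at 23.1 and 22.9. With 1 library per treatment, the spread that would separate such neighbours is not known. The FPKM of all 10 genes summed to 520 without stimulation, 842 after GDF15, and 1035 after TGF-β. The share of *Fbln2* in this sum was 49.4%, 57%, and 60.1%, that of *Efemp2* 23.5%, 13.5%, and 11%, and that of *Fbn1* 18.4%, 19.3%, and 17.7%. *Eln* was a small part throughout, at 0.344%, 0.538%, and 1.53%. Set against the scaffold gene, *Eln* was at 1.87% of the FPKM of *Fbn1* without stimulation, 2.79% after GDF15, and 8.61% after TGF-β.

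Changes by GDF15 followed transcript length across the table, which bears on *Fbn1*, whose longest coding transcript has 11971 bases. Among genes whose mean FPKM was at least 1, the median change by GDF15 was -0.34 for the 458 genes of up to 1000 bases and 0.17 for the 479 genes over 8000 bases. For TGF-β, these medians were -0.21 and 0.05. With the length trend removed, the change of *Fbn1* was 0.58 by GDF15 and 0.88 by TGF-β. The short *Mfap5* (1506 bases) moved the other way, to 0.63 and 1.27. *Fbln5* stayed past the criterion for both stimuli at 1.09 and 1.42, and *Eln* remained at 0.98 and 2.64. The cause of the length trend was not tested.

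**Figure D4:**
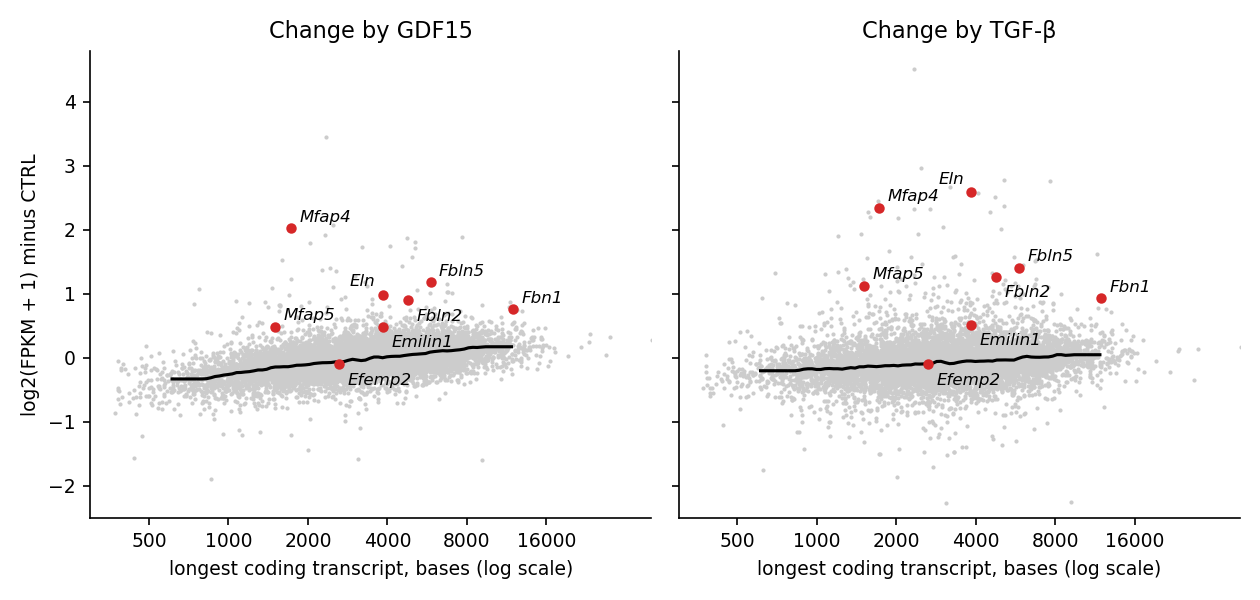
Change by GDF15 (left) and by TGF-β (right), as differences of log2(FPKM + 1) from CTRL, against transcript length in bases (longest coding transcript, GENCODE M21, log axis). Grey points are genes whose mean FPKM was at least 1, the black line is their running median, and red points are the 8 elastic fibre genes. *Fbn1* is the longest of them at 11971 bases, where the running median by GDF15 is 0.17.

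The other genes of the elastic fibre pathway were followed in lists by role, 66 genes in all, of which 60 were in the table. For each stimulus, 4 of these 60 were higher than in CTRL by the criterion on log2(FPKM + 1) and 0 were lower. The 4 were *Ltbp2*, *Lox*, *Bgn*, and *Itgb5* for both. Over all genes, 0.212% were higher and 0.0772% lower by GDF15, and 0.579% were higher and 0.334% lower by TGF-β. In the direct comparison, 0 of the 60 passed, where 0.0836% of all genes were higher and 0.0193% lower. Among 11 further microfibril proteins, *Ltbp2* encodes a latent TGF-β binding protein that binds fibrillin 1 without binding latent TGF-β itself. Its FPKM was 19.4 without stimulation, 40.7 after GDF15, and 57.8 after TGF-β, with changes of 1.03 and 1.52. With the length trend removed, the change of *Ltbp2* by GDF15 was 0.918, which left 3 of the 60 higher by GDF15. *Efemp1*, which encodes fibulin 3, was the most abundant of this list and the most lowered by TGF-β, at 531, 516, and 344 in the same order, with changes of -0.04 and -0.63. The median over the 6 genes of this list whose mean FPKM was at least 1 was 0.21 by GDF15 and 0.06 by TGF-β.

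Of 17 genes for cross-linking and assembly, 13 were in the table. *Lox*, which encodes the lysyl oxidase that initiates the cross-linking of elastin and collagen, was at 78 without stimulation, 289 after GDF15, and 452 after TGF-β, with changes of 1.88 and 2.52. The ratio of *Lox* to *Eln* FPKM was 43.6 without stimulation, 63.8 after GDF15, and 28.6 after TGF-β, so *Lox* was ahead of *Eln* by GDF15 and behind it by TGF-β relative to CTRL. *Loxl1*, the family member most closely tied to elastic fibres, was at 47, 50.6, and 47.5, with changes of 0.11 and 0.02. *Bgn* and *Dcn* encode small proteoglycans that can associate with microfibrils. *Bgn* was at 290, 770, and 1117, with changes of 1.40 and 1.94. *Dcn* was at 419, 408, and 249, with changes of -0.04 and -0.75, the lowest of this list by TGF-β.

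The elastin breakdown list holds elastases, cathepsins, and metalloproteinases with the tissue inhibitors of the last. Of its 9 genes whose mean FPKM was at least 1, 7 were lower and 2 higher than CTRL for each stimulus, while of all 9226 genes at this level 5129 were lower by GDF15 and 5797 by TGF-β. None of the 9 passed the criterion, where 0.212% of all genes were higher and 0.0772% lower by GDF15, and 0.579% and 0.334% by TGF-β. *Mmp9* (1.6, 0.921, and 0.496), counted among the 7 lower, reached the mean of 1 only through CTRL. The medians were -0.20 by GDF15 and -0.53 by TGF-β, against -0.03 and -0.07 over all genes at this level. *Cela1*, a pancreatic-type elastase gene, was at 16.2 without stimulation, 8.63 after GDF15, and 7.63 after TGF-β, with a change of -0.84 by GDF15. Its change by TGF-β was -0.996, short of the criterion, and it passed with a smaller pseudocount (-1.039 at 0.5). *Ctsl*, the most abundant, was at 1772, 1368, and 977, with changes of -0.37 and -0.86. *Mmp12*, the macrophage elastase, and *Ctss* were listed at 0 in all 3 libraries. These 9 genes include 3 inhibitors. *Timp3* was at 161, 244, and 254, with changes of 0.60 and 0.65. *Timp2* had changes of -0.20 and -0.27, and *Timp1* of -0.15 by GDF15 and 0.28 by TGF-β.

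Among the receptors, *Itgb5*, which encodes an integrin chain that pairs with αv and binds matrix proteins with an RGD sequence, was at 56.3 without stimulation, 129 after GDF15, and 169 after TGF-β, with changes of 1.18 and 1.57. *Rpsa*, the gene of a ribosomal protein also known as a laminin receptor, was the most abundant at 498, 405, and 447, with changes of -0.30 and -0.16. *Ctsa*, which encodes a part of the elastin receptor complex, was the most lowered by TGF-β, at 134, 114, and 103, with changes of -0.23 and -0.38. The receptor list as a whole had medians of 0.03 and 0.14 over its 9 genes at a mean FPKM of at least 1.

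**Figure D5:**
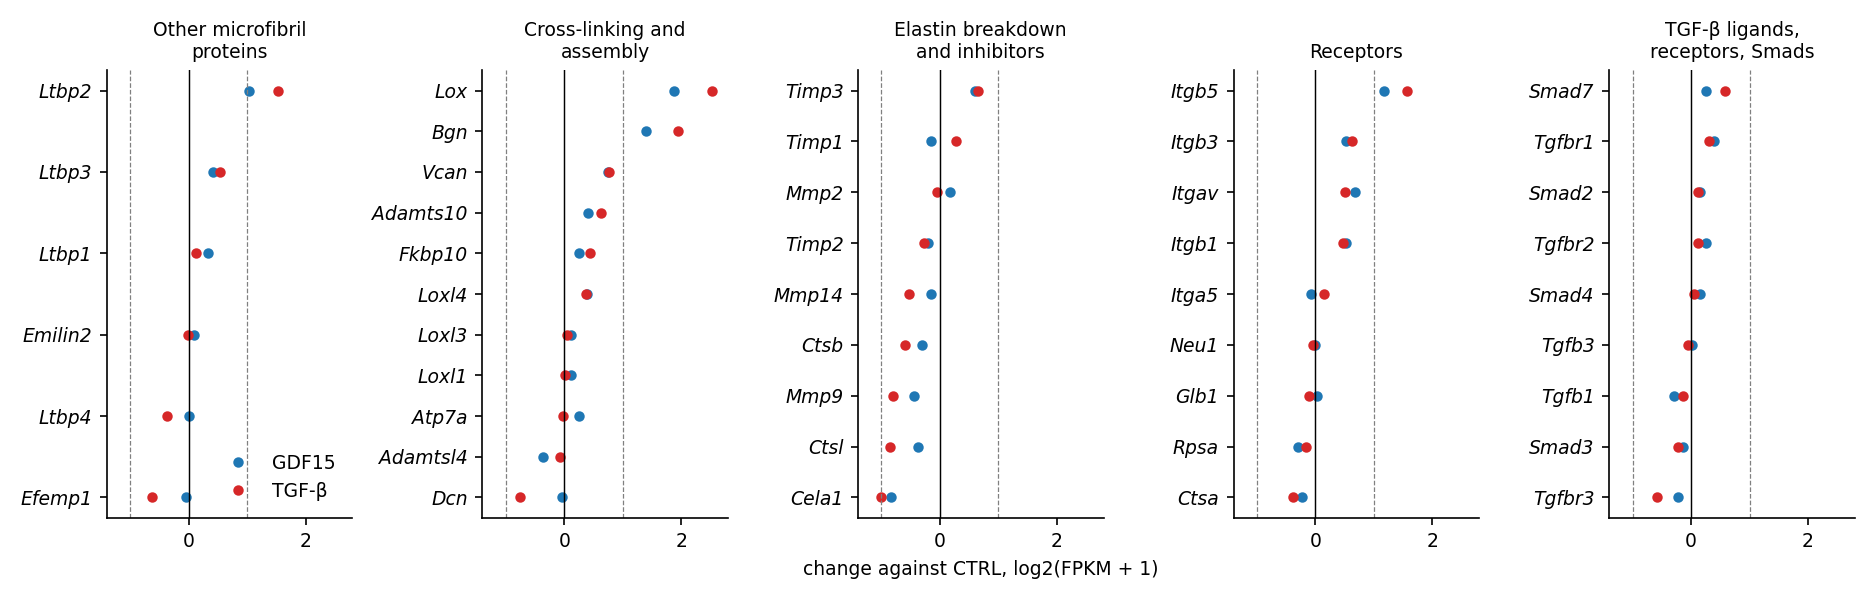
Change against CTRL, as a difference of log2(FPKM + 1), for genes of the 5 pathway lists whose mean FPKM was at least 1; blue points are GDF15, red points TGF-β, dashed lines the 2-fold criterion. *Lox* (1.88 and 2.52) lies farthest to the right, and *Cela1* (-0.996 by TGF-β) farthest to the left.

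As a comparison with the matrix genes most like them, 37 collagen chain genes and 5 lysyl oxidase genes were taken by symbol. Of the collagen chain genes, 2 were more than 2-fold higher by GDF15 (0.212% of all genes) and 5 by TGF-β (0.579% of all genes). Counted in either direction, 8 by GDF15 and 13 by TGF-β were over 2-fold without a pseudocount, where 589 and 789 of all genes were. At a pseudocount of 0.1, 4 were by GDF15, against 315 of all genes. As reported, 45 of all genes were over 2-fold in either direction by GDF15 and 142 by TGF-β. Without a pseudocount, only genes detected in every library were counted. The medians of the 18 collagen chain genes whose mean FPKM was at least 1 were 0.53 and 0.61. Of the lysyl oxidases, 1 (*Lox*) was higher by the criterion for each stimulus, where 0.212% and 0.579% of all genes were. The medians of the 4 whose mean FPKM was at least 1 were 0.26 and 0.20. In the direct comparison, the medians were 0.28 for the elastic fibre genes, 0.13 for the collagen chains, and -0.05 for the lysyl oxidases. Of the latter 2 families, 0 genes passed the criterion, where 0.0836% of all genes were higher in TGF-β and 0.0193% lower. Whether these families differ was not tested.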

How the data were processed

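The submitters' processing notes name TopHat 1.3.2, Bowtie 0.12.9, Cufflinks 2.0.2, and mm10, without roles. The authors sequenced stranded mRNA libraries (single-end reads, 1 library of pooled RNA per treatment), calculated FPKM with Cufflinks, and deposited the FPKM of protein coding genes reviewed in UniProt. Whether counting used the strand is not given in the sources used here. Columns were matched to samples by the treatment in their names.

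No rescaling was applied to the deposited FPKM. Changes are differences of log2(FPKM + 1), called over 2-fold (a log2 difference over 1). With 1 library per treatment no test or p-value was computed. Of 15554 rows, 15472 were matched to GENCODE M21 (GRCm38, the build of mm10), 14725 by symbol and 747 by an older symbol in RefSeq. Depth was estimated as the number at which FPKM times effective length (longest coding transcript less 200 bases) of low genes with 1 coding transcript came closest to whole fragments; between 77.7% and 78.3% of 377 to 387 such genes lay within 0.15 of a whole fragment. Intervals are exact conditional binomial, at 95%. The floor was 3 fragments. Steps were tested on simulated data.

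Named are the 10 genes, pathway genes over 2-fold, and, per list, the most abundant and the most raised and lowered by TGF-β, and the 5 genes closest to *Eln*. *Mfap2*, *Loxl1*, *Mmp12*, *Ctss*, *Timp1*, *Timp2*, *Mmp9*, the cell type markers, and the overlapping genes were named after their values were seen. The members and lists were chosen with earlier results of these data known. The work used Python 3.11.15 with pandas 2.3.3, numpy 2.4.6, matplotlib 3.10.9, and scipy 1.17.1.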

Additional observations from a re-analysis of the deposited data

How the results depend on the processing

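No paired analysis was possible because there is 1 library of pooled RNA a treatment. Leaving a library out was likewise not possible. A count is given as moved when it differed by more than 1.5 times, and a median when it moved by more than the spread of the change among genes (0.22 for GDF15, 0.23 for TGF-β, and 0.16 for the direct comparison). Alternatives were pseudocounts of 0.5 and 0.1, no pseudocount, a filter at a mean FPKM of 1, upper-quartile scaling, and subtraction of a running median by expression, of the length trend, and of a joint trend with length and GC. The median changes of the 8 elastic fibre genes did not move under any of the 7 alternatives that can change them (the filter cannot). The number of the 10 genes more than 2-fold higher in GDF15 was 4 after removal of the running median by expression, which took *Eln* and *Fbln2* past the criterion. Among the pathway genes, 1 was lower by GDF15 without a pseudocount, and 2 (*Cela1* and *Mmp9*) were lower by TGF-β with pseudocounts of 0.5 and 0.1 and without one. Collagen chain genes over 2-fold by GDF15 were 4 at a pseudocount of 0.1 and 8 without one, by TGF-β 13 without one, and in the direct comparison 1 at 0.1 and 2 without one. For single elastic fibre genes, the alternatives other than the filter gave 168 values. Of these, 127 lay within counting error of the reported value and 41 did not, 3 had the other sign (all of *Efemp2*), and 9 lay on the other side of 2-fold: 6 of *Eln* by GDF15, 1 of *Fbln2* by GDF15, and 2 of *Fbn1* by TGF-β. The causes were not tested. Over all genes, 71 were over 2-fold by GDF15 and 32 in the direct comparison at a pseudocount of 0.5, 315 were over 2-fold by GDF15, 489 by TGF-β, and 227 in the direct comparison at a pseudocount of 0.1, and 589, 789, and 525 without a pseudocount, against 45, 142, and 16 as reported. Without a pseudocount, only genes detected in every library were counted. Depth limits *Mfap4* in CTRL, *Fbln1*, and *Fbn2*. Replicate error is not known for any of these FPKM values.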

Other observations

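The genes with the pattern most like that of *Eln* were looked for among genes whose mean FPKM was at least 1, by the distance over the change by GDF15 and the change by TGF-β in the 3 libraries. The 5 closest were *Krt14* (changes of 0.98 and 2.45, distance 0.14), *Cdsn* (0.92 and 2.33, distance 0.27), *Wisp2* (1.24 and 2.39, distance 0.32), *Krt16* (0.83 and 2.28, distance 0.35), and *Pmepa1* (1.43 and 2.27, distance 0.55). *Krt14* and *Krt16* encode keratins, *Cdsn* a protein of the cornified skin layer, *Wisp2* a matricellular protein of the CCN family, and *Pmepa1* an inhibitor of TGF-β signalling. The FPKM of *Krt14* was 24 without stimulation, 48.2 after GDF15, and 136 after TGF-β, and that of *Krt16* was 1.82, 4.01, and 12.6. The likeness to *Eln* rests on 3 libraries that share 1 CTRL.

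Of 10 ligands, receptors, and Smads of the TGF-β pathway, 0 passed the 2-fold criterion for either stimulus, where over all genes 0.212% were higher and 0.0772% lower by GDF15 and 0.579% higher and 0.334% lower by TGF-β. The medians over the 9 whose mean FPKM was at least 1 were 0.15 by GDF15 and 0.05 by TGF-β. *Smad7*, which encodes an inhibitory Smad, had the largest rise by TGF-β, with an FPKM of 2.58 without stimulation, 3.28 after GDF15, and 4.36 after TGF-β, with changes of 0.25 and 0.58. *Tgfbr3*, which encodes the coreceptor betaglycan, was the most abundant and the most lowered by TGF-β, at 45.7, 39.1, and 30.2, with changes of -0.22 and -0.58.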
